A study of Mus musculus with 24 samples.

Results

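The comparison described here is that of unstimulated macrophages (M0) lacking the glucose transporter GLUT1 in myeloid cells (KO) with floxed control macrophages (WT). Its members are the 8 arrays whose titles name GLUT1 KO M0 (4 arrays) or GLUT1 WT M0 (4 arrays), of 24 arrays in the series. The cells were bone marrow derived macrophages, grown from mouse marrow for 6 days in 20 ng/ml M-CSF, which drives precursors to become macrophages, and then left untreated for 24 h. WT cells carried the floxed allele Slc2a1 fl/fl, and KO cells came from a LysMCre X Slc2a1fl/fl cross (Slc2a1M-/-), so the floxed allele was common to both groups. The other 16 arrays held the same genotypes after 24 h with 5 ng/ml LPS and 10 ng/ml IFNg (M1) or 10 ng/ml IL-4 (M2). The labels call the 4 arrays of a group biological replicates, and they give neither the age and sex of the mice nor which exons are flanked by loxP sites.

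GLUT1, encoded by Slc2a1, is the main carrier by which macrophages take up glucose, which enters glycolysis and feeds the pentose phosphate pathway, the TCA cycle and fatty acid synthesis. In LysMCre mice the Cre recombinase is inserted at the lysozyme gene Lyz2, an abundant transcript of macrophages. Cre is an enzyme that removes the DNA between a pair of loxP sites. Because no Cre is listed for the WT mice, the Cre insertion at Lyz2 and the loss of Slc2a1 distinguish the same groups, and their parts in any difference below cannot be told apart.

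Expression was read on one-colour Agilent arrays, and a level below is the log2 intensity of a probe relative to the 75th percentile of its array. A difference is KO minus WT on this log2 scale, with the standard error (SE) of the limma fit. A gene is called when its Benjamini-Hochberg adjusted p over all 25632 genes tested is under 0.05. The 75th percentile of the 8 M0 arrays lay between 1854 and 2924 intensity units, and 60.4% to 71.3% of the probes on each array were well above background. The arrays of replicate 2 stood apart in both genotypes. They lay above the other 6 arrays for 4619 genes (18%) and below them for 6206 (24.2%). The Y-linked gene Ddx3y was not well above background in replicate 2 of either genotype and was so on the other 6 arrays. Interferon-stimulated genes were higher in replicate 2 than in the other replicates (list median difference 1.66 in WT against 1.79 in KO) and cell cycle genes were lower (-1.40 and -1.28). Values without replicate 2 of both groups are given below where they change a call.

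The array holds 1 probe for Slc2a1 itself, at transcript position 2501 (mm9, chromosome 4, 118809864 to 118809923). Its level in replicates 1 to 4 was 3.76, 2.06, 2.67 and 2.72 in WT M0 against 3.1, 1.86, 2.53 and 2.42 in KO M0. The groups overlapped, although KO lay below WT in each of the 4 replicate numbers. The difference was -0.33 ± 0.35 (95% interval -1.05 to 0.39; adjusted p = 1), and it did not pass the test. Since the deleted exons are not given in the sources used here, this probe does not check the deletion. No other probe within 200 kb of it on chromosome 4 was called.

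Lyz2, which encodes the lysozyme of macrophages, separated the genotypes on every array. It was read by 2 probes on the minus strand of chromosome 10. The probe near the start of the transcript (position 94; mm9 116719175 to 116719234), called the coding probe below, had levels of 7.37, 7.40, 7.33 and 7.22 in WT M0 against -0.25, 1.36, -0.75 and -0.58 in KO M0. All 4 KO arrays were far below all 4 WT arrays, and the difference of -7.38 ± 0.43 corresponds to a 166.5-fold lower signal (adjusted p = 3.8e-09 over all probes). The probe farther along (position 1146; mm9 116714450 to 116714509) read 7.59, 7.67, 7.82 and 7.58 in WT against 4.72, 6.33, 4.46 and 4.50 in KO. Its difference was smaller, -2.66 ± 0.37 (adjusted p = 0.00166), and this probe, the brighter of the 2, stood for the gene in the test over all genes. In both probes replicate 2 was the highest KO array. In a fit to the 8 M0 arrays alone, the difference of this probe did not pass (adjusted p = 0.275, and 0.413 with the replicate number as a block), nor did it without replicate 3 of both groups (-2.43, adjusted p = 0.054).

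The neighbouring Lyz1, the lysozyme of Paneth cells in the gut, had levels of 4.93, 4.83, 5.00 and 4.96 in WT against 3.33, 4.58, 3.42 and 3.24 in KO. Again the groups did not overlap and KO replicate 2 was closest to WT. The difference of -1.29 ± 0.26 did not pass the test (adjusted p = 0.0866), whereas it did without replicate 2 of both groups (-1.63, adjusted p = 0.00425). Lyz1 and Lyz2 are close copies, and their signals may not be separate. The other 4 measured lysozyme-type genes, most of them known from the testis, ranged from -0.78 (Lyzl6) to 0.06 (Lyzl4), and none of them was called. Farther along chromosome 10, Yeats4, a reader of acetylated histones, was 3.44, 3.53, 3.47 and 3.56 in WT against 3.88, 3.77, 3.79 and 3.76 in KO. These groups did not overlap either, but the difference of 0.30 ± 0.08 was not called (adjusted p = 0.496).

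**Figure D1:**
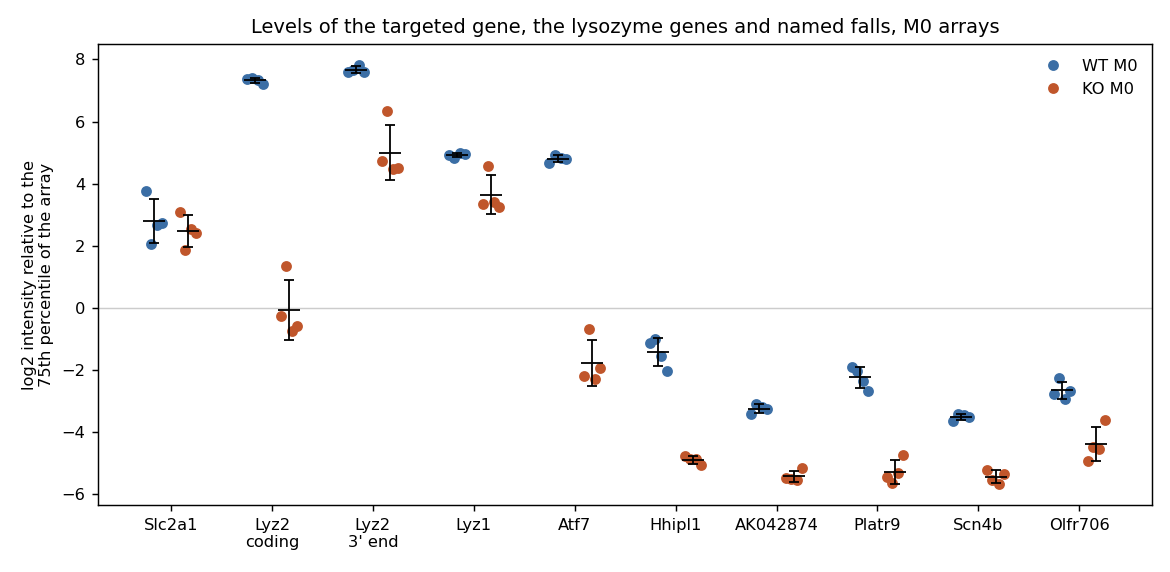
Log2 level relative to the array's 75th percentile (vertical axis) of the targeted gene Slc2a1, both Lyz2 probes, Lyz1 (not called) and 6 called falls, in WT M0 (blue) and KO M0 (orange). Points are arrays and bars are mean and SD (n = 4). Slc2a1 overlaps between the genotypes, whereas the Lyz2 coding probe falls from between 7.22 and 7.40 in WT to between -0.75 and 1.36 in KO.

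Over the whole array the genotypes differed little in M0. Of 25632 genes, 14 were called (0.0546%), 2 of them higher in KO (0.0078%) and 12 lower (0.0468%). Without adjustment, 808 genes had a limma p under 0.05 (3.15%), 293 higher (1.14%) and 515 lower (2.01%). The KO and WT arrays did not overlap for 534 of the 25025 genes with a value on all 8 arrays (2.13%), with KO lower for 353 (1.41%) and higher for 181 (0.723%). Most estimates were small, since 25343 genes differed by less than 2-fold, and the median gene's 95% interval reached 0.48 to either side. A fit to the 8 M0 arrays alone called 9 genes, all lower in KO, of which 8 were among the 14, and 4 of the 14 were called when that fit also took the replicate number as a block.

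**Figure D2:**
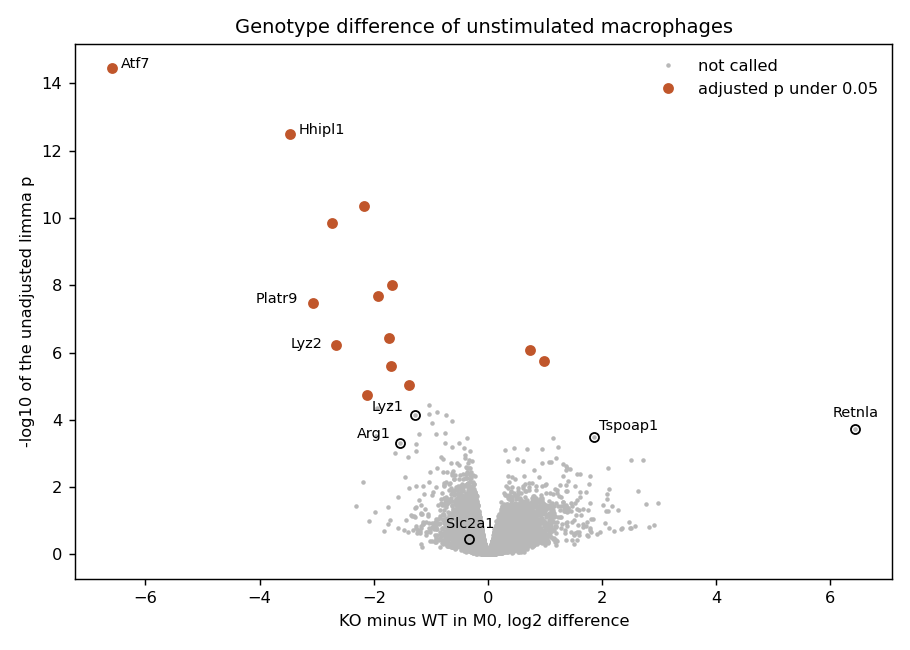
Difference between KO and WT in M0 (horizontal axis, log2) against -log10 of the unadjusted limma p (vertical axis) for 25632 genes; orange points are the 14 called genes and open circles mark named genes that were not called. Called genes lie mostly on the left, led by Atf7 at -6.58, and Retnla stands alone on the far right at 6.43 without being called.

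The largest fall after that of the Lyz2 coding probe was that of 1 of 5 probes for Atf7, which encodes a DNA-binding protein related to CREB. Its level was 4.68, 4.93, 4.84 and 4.79 in WT against -2.19, -0.68, -2.28 and -1.94 in KO. The groups lay far apart, with KO replicate 2 again the highest of the KO arrays, and the difference was -6.58 ± 0.31 (95.8-fold, adjusted p = 9.24e-11). This probe starts at position 2742 of the transcript (chromosome 15, mm9 102367127 to 102367186). The other 4 Atf7 probes did not share the fall. Their differences were -0.21, -0.13, -0.04 and 1.35, none of which passed, and the last of these was well above background on 1 WT array. Taking the median over its probes, Atf7 differed by -1.46 and was still called.

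Hhipl1, which encodes a relative of the hedgehog-interacting protein, was at -1.12, -0.99, -1.55 and -2.02 in WT and at -4.78, -4.86, -4.86 and -5.07 in KO. It differed by -3.47 ± 0.21 (11.1-fold, adjusted p = 4.03e-09), with no overlap. The 2 other Hhipl1 probes were not well above background on any M0 array. Platr9, a long noncoding RNA described in embryonic stem cells, was at -1.89, -2.04, -2.34 and -2.66 in WT against -5.46, -5.65, -5.32 and -4.75 in KO, a difference of -3.06 ± 0.35 (adjusted p = 1.26e-04, and 0.378 in the M0 arrays alone with the replicate block).

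The 4 smaller named falls were also of genes with little known role in macrophages. Scn4b, a beta subunit of sodium channels, fell by 1.93 (SE 0.22, adjusted p = 9.19e-05, and 0.175 in the M0 arrays alone with the replicate block). The odorant receptor Olfr706 fell by 1.73 (SE 0.23, adjusted p = 0.00118), and Fbll1, a relative of the nucleolar methyltransferase fibrillarin, fell by 1.70 (SE 0.26, adjusted p = 0.00542). A second odorant receptor, Olfr1466, fell by 1.38 (SE 0.23, adjusted p = 0.0184), with WT at 0.03, 0.30, -0.01 and -0.36 and KO at -1.49, -1.04, -1.68 and -1.33. In all 4 genes the arrays of the genotypes did not overlap. Olfr706 did not pass in the M0 arrays alone (adjusted p = 0.396, and 0.413 with the replicate block). Olfr1466 lost its call under 13 of 22 other settings, among them the replicate block over 24 arrays (adjusted p = 0.144). Fbll1 lost its call under 4, each of which left out 1 replicate of both groups. Without replicate 2 of both groups the adjusted p was 0.0865 for Olfr1466 and 0.0622 for Fbll1.

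A further 3 falls had no gene symbol beyond a clone or locus name. AK042874 on chromosome 13 differed by -2.18 ± 0.17 (adjusted p = 3.74e-07), a transcribed locus on the reverse strand of chromosome 12 (probe at mm9 115365828 to 115365887) by -1.69 ± 0.18 (adjusted p = 5.16e-05) and AI835735 on chromosome 9 by -2.13 ± 0.38 (adjusted p = 0.0336). AI835735 was well above background on 4 of 4 WT and 1 of 4 KO arrays in M0, and in the other states only on 1 WT M1 array. To be tested, a probe had to be well above background on 4 of 24 arrays. AI835735 reached this only through WT M0, where it was high, and it stays in the counts of called genes. It lost its call under 16 of 22 other settings. Among them were the replicate block over 24 arrays (adjusted p = 0.112) and the fit without replicate 2 of both groups (adjusted p = 0.364). In the M0 arrays alone with the replicate block, AK042874 (adjusted p = 0.0607) and the chromosome 12 locus (0.378) did not pass.

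The levels of the falling probes in the other states are given as a description, since the falls were chosen on the same WT M0 arrays to which those states are compared. In WT cells the Lyz2 coding probe was highest in M0 (7.33 ± 0.08, mean ± SD, n = 4) and lower in M1 (6.13 ± 0.38) and M2 (6.37 ± 0.17). Atf7 was 4.81 ± 0.10, 3.31 ± 0.47 and 3.73 ± 0.15 in the same 3 groups, and Hhipl1 was -1.42 ± 0.47, -3.04 ± 0.32 and -2.87 ± 0.34. In WT, 10 of the 12 falling genes were lower in M1 than in M0 and in M2 than in M0 by the limma test, from -1.62 (Hhipl1) to -1.04 (the chromosome 12 locus) in M1. AI835735, which is among the 10, was well above background on 1 of 4 WT M1 and 0 of 4 WT M2 arrays. The size of its change is limited by background. Of all 25632 genes, 5625 (21.9%) were lower in WT M1, 2291 (8.94%) in WT M2 and 961 (3.75%) in both. The exceptions were Lyz2 as read by its other probe (0.34 in M1 and 0.01 in M2, neither passing) and Olfr1466 (-0.41 in M1, not passing, and 0.85 in M2). In KO cells the Lyz2 coding probe stayed near -0.05 in M0, -0.07 in M1 and -1.49 in M2, and Atf7 was -1.77, -2.15 and -2.69. The arrays fall into separate groups by genotype and state, so no correlation over them is given.

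**Figure D3:**
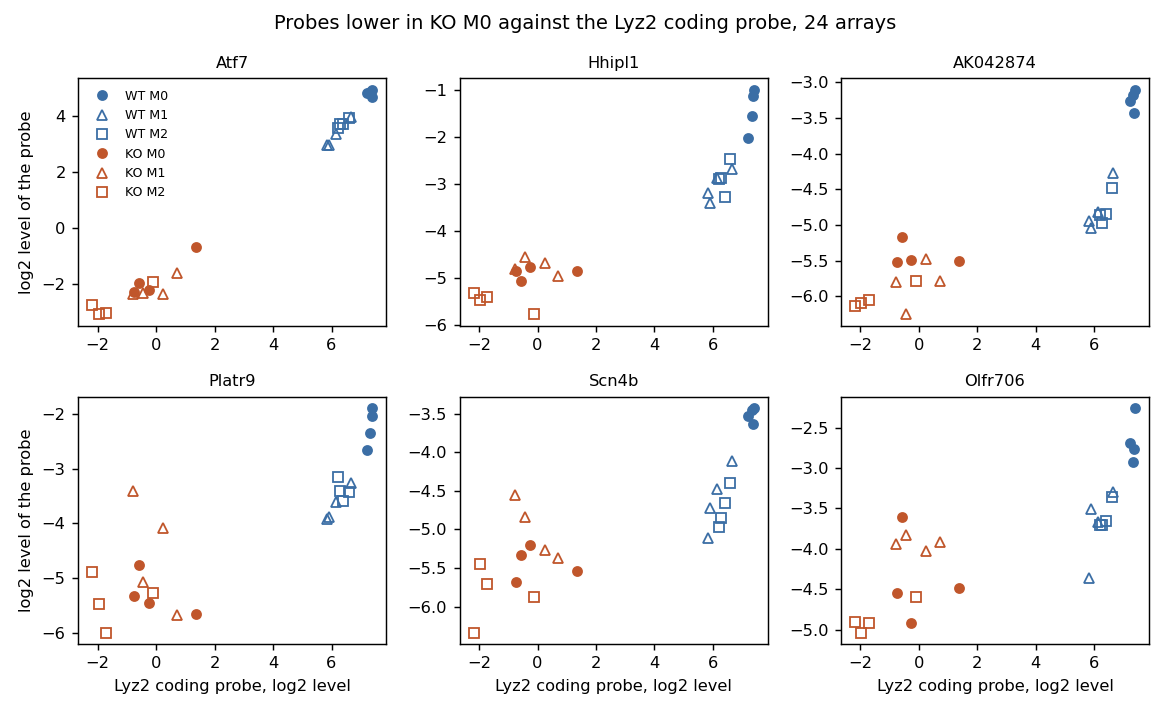
Level of 6 probes that were lower in KO M0 (vertical axes) against the level of the Lyz2 coding probe (horizontal axes) on 24 arrays, both as log2 intensity relative to the array's 75th percentile; blue is WT, orange is KO, filled circles are M0, triangles M1 and squares M2. In each panel the WT M0 arrays sit at the upper right, the other WT arrays below them and the KO arrays at the left.

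The sequences of 5 of these 60-base probes are shown because each of these differences was read by that probe. Whether a probe binds a transcript other than its own was not tested. They are written 5′ to 3′, and capitals mark the longest run of letters that a probe shares with the Lyz2 coding probe.
Lyz2 coding probe: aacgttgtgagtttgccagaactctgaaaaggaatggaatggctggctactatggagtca
Hhipl1: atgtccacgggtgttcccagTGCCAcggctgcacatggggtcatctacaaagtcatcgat
Platr9: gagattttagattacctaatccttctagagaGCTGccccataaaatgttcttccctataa
Olfr706: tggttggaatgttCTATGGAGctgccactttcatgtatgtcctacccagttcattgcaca
AK042874: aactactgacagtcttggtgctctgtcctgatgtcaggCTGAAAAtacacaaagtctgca
The Hhipl1 probe lies on chromosome 12 (mm9 109560027 to 109560086), that of Platr9 on chromosome 4 (34857133 to 34857192), that of Olfr706 on chromosome 7 (114029531 to 114029590) and that of AK042874 on chromosome 13 (24112135 to 24112194). The longest shared run was 5 bases in Hhipl1, 4 in Platr9, 8 in Olfr706 and 7 in AK042874, and in the Atf7 probe, which is not shown, it was 6. Runs of at least these lengths occur in 94.0%, 100%, 5.6%, 18.9% and 53.8% of all 56605 gene probes, and the median over all probes is 6. The probes of Hhipl1, Platr9 and Atf7 thus shared no longer a run than the median probe, and those of Olfr706 and AK042874 a longer one. The comparison covers the 60 bases of the Lyz2 coding probe, and the rest of the Lyz2 transcript was not compared.

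The rises were fewer and smaller. B230217O12Rik, a RIKEN cDNA locus on chromosome 19, was 1.73, 1.92, 2.09 and 2.14 in WT against 2.63, 2.78, 2.90 and 2.51 in KO, with no overlap. It differed by 0.73 ± 0.10 (adjusted p = 0.00215) and lost its call without replicate 2 of both groups (adjusted p = 0.0567). The call was also lost in the fit to the M0 arrays alone (adjusted p = 0.559) and in that fit with the replicate block (0.433). The transcript ENSMUST00000119478 on chromosome 4 was 5.25, 5.03 and 5.35 in WT, where replicate 4 had no value after outlier spots were left out, and 6.19, 6.10, 6.12 and 6.33 in KO. It differed by 0.98 ± 0.14 (adjusted p = 0.00426) and lost its call under 6 of 22 other settings. Among them were the replicate block over 24 arrays (adjusted p = 0.102) and the fit without replicate 2 of both groups (adjusted p = 0.0911). When each probe was tested on its own, Ankrd10, an ankyrin repeat protein, was also higher by 1 of its 3 probes (1.19 ± 0.15, adjusted p = 5.85e-04), while its other probes differed by 0.16 and 0.21.

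Retnla, the secreted resistin-like molecule alpha that IL-4 induces in macrophages, had the largest positive difference. It was -8.14, -5.21, -4.37 and 0.97 in WT against 0.40, 4.62, 2.84 and 1.12 in KO, and it was well above background on 3 of 4 WT arrays and 4 of 4 KO arrays. KO was higher than WT by 9.83 in replicate 2, by 7.22 in replicate 3 and by 0.15 in replicate 4, where WT was itself high, and in replicate 1 WT was not well above background. The fitted difference of 6.43 ± 1.41, which includes that array at its measured value and is no fold, did not pass (adjusted p = 0.203), whereas it passed without replicate 4 of both groups (8.53, adjusted p = 0.00579) and without WT replicate 4 (8.15, adjusted p = 0.00321). In M2 the level was 7.55 ± 0.10 (mean ± SD) in WT against 7.57 ± 0.18 in KO. In M1 it was -7.15 ± 0.94 in WT, well above background on 0 of 4 arrays, against -0.60 ± 2.72 in KO, on 4 of 4. Retnla was called higher in KO M1 (limma adjusted p = 6.72e-04), as 44.2% of all genes were called in M1 in either direction. The size of that difference is limited by background.

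Arg1, the arginine-degrading enzyme that IL-4 also induces, went the other way. It was 0.96, 0.68, 0.76 and 1.06 in WT against -1.45, 0.88, -0.60 and -1.55 in KO. Only KO replicate 2 lay within the WT range. The difference of -1.55 ± 0.37 did not pass (adjusted p = 0.372), but passed without replicate 2 of both groups (-2.13, adjusted p = 0.00266). Of the 25 measured genes of IL-4 activation, 0 were called by limma, beside 0.0546% of all genes. In each direction 1 had an unadjusted p under 0.05 (Retnla higher, Arg1 lower), beside 1.14% higher and 2.01% lower of all genes. The median difference was -0.08 beside -0.01 for all genes. Chil3 (-0.13), Mrc1 (-0.14) and Ccl22 (-0.34) were among those not called.

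**Figure D4:**
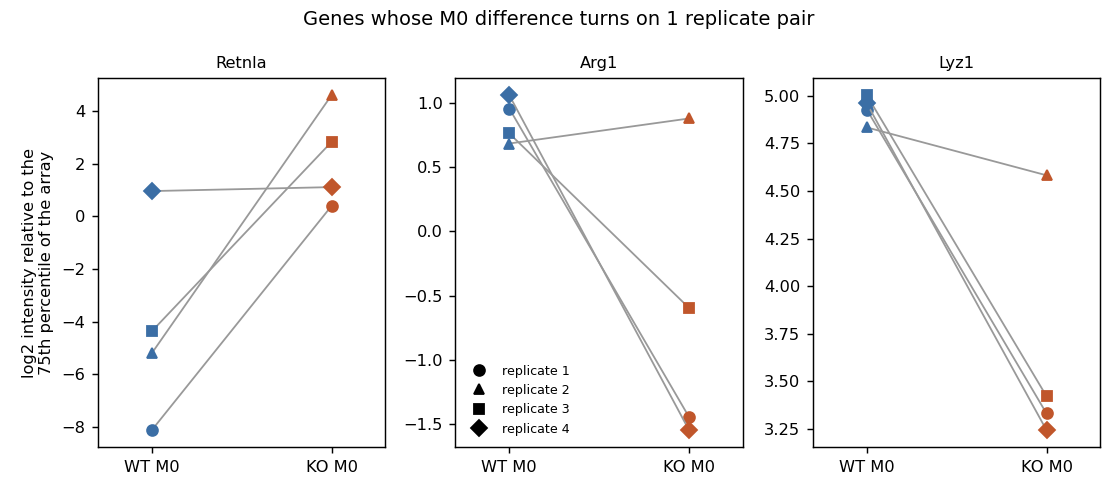
Log2 level relative to the array's 75th percentile (vertical axes) of Retnla, Arg1 and Lyz1 in WT M0 and KO M0; lines join arrays of the same replicate number. Retnla is higher in KO in 3 pairs and level in replicate 4, and Arg1 and Lyz1 are lower in KO in replicates 1, 3 and 4 but close to WT in replicate 2.

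The remaining rises of smallest p are given as values only. Tspoap1, a partner of the mitochondrial protein TSPO, was -0.02, 0.15, 0.42 and 0.57 in WT against 2.66, 1.18, 2.2 and 2.47 in KO (1.85 ± 0.43, adjusted p = 0.281), and its other 2 probes differed by 1.85 and 0.25. Tppp3, a tubulin-binding protein, was -1.16, -1.14, -1.22 and -1.11 in WT against 0.43, -0.88, -0.01 and 0.39 in KO (1.14 ± 0.26, adjusted p = 0.283). Neither gene overlapped between the genotypes, and Tppp3 passed without KO replicate 2 (1.43, adjusted p = 0.0135). Farp1, a guanine nucleotide exchange factor, differed by 1.23 ± 0.30 (adjusted p = 0.444), while its second probe differed by 0.10.

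Glucose metabolism was examined by the members' roles, and none of these genes was called. Here and in the lists below, the shares of all genes were 0.0546% called and 3.15% with an unadjusted limma p under 0.05. At so low a share of calls, 0 called in a list is no result about that list. Among the transporters, Slc2a3 (GLUT3), the other high-affinity carrier, was -0.02, -0.06, 0.73 and 0.98 in WT against 0.27, 0.25, 0.77 and 0.56 in KO. Slc2a3 overlapped between the genotypes and differed by 0.06 (95% interval -0.59 to 0.70). Slc2a6 differed by 0.12 and Slc2a8 by -0.11. The muscle and fat transporter Slc2a4 (0.93, unadjusted p = 0.0447) was well above background on 0 of 4 WT and 3 of 4 KO arrays. Of 10 measured transporters, 0 were called and 1 had an unadjusted p under 0.05, with a median difference of 0.07 that was -0.07 without WT replicate 2.

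Of the 25 measured genes of glycolysis and lactate handling, 0 were called and 1 had an unadjusted p under 0.05 (Gapdh, -0.31). The hexokinase genes differed by -0.36 (Hk1), 0.01 (Hk2) and -0.13 (Hk3). Hk2 was 1.43, 2.12, 1.58 and 1.82 in WT against 1.38, 2.26, 1.88 and 1.45 in KO, with complete overlap. Ldha, which makes lactate, differed by -0.22 and the lactate exporter Slc16a3 by -0.49. The median over the list was -0.15 and 21 of 25 differences were negative. For Pfkl, which catalyses the committed step, and Gpi1 the arrays of the genotypes did not overlap, with differences of -0.35 and -0.15, 2 of 25 genes beside 1.41% of all genes.

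The genes that report glucose entry through the factors Mlx, Mlxip and Mlxipl also stayed below the test. Txnip was 6.71, 7.33, 6.79 and 6.70 in WT against 6.33, 7.01, 6.46 and 6.11 in KO, a difference of -0.40 ± 0.28. Arrdc4, its relative, was 0.99, 1.55, 1.14 and 0.90 in WT against 0.52, 1.36, 0.48 and 0.01 in KO, a difference of -0.55 ± 0.28 (95% interval -1.14 to 0.04). Both were lower in KO in all 4 replicate numbers, but the genotypes overlapped. Of 8 measured genes of the list, 0 were called, 1 had an unadjusted p under 0.05 (Mlxipl, 0.37), and the median was -0.25.

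In the pentose phosphate pathway 0 of 11 measured genes were called and 0 had an unadjusted p under 0.05. G6pdx, its first enzyme, differed by -0.14 and Tkt by -0.05. In the hexosamine, glycogen and fructose list 0 of 19 were called and 1 had an unadjusted p under 0.05 (Mpi, -0.35). Gfpt1, which starts hexosamine synthesis, was 2.56, 2.33, 2.47 and 2.47 in WT against 2.31, 2.25, 2.26 and 2.06 in KO. Its groups did not overlap, and the difference of -0.24 ± 0.13 did not pass.

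Mitochondrial genes differed slightly and mostly in the negative direction, and for the respiratory chain the share of negative genes depended on the scaling. Of 28 measured genes of pyruvate and TCA cycle metabolism, 0 were called, 1 had an unadjusted p under 0.05 (Dlat, a subunit of pyruvate dehydrogenase, -0.36) and 25 were negative, with a median of -0.12. Of 22 respiratory chain genes, 0 were called, 0 had an unadjusted p under 0.05, and 22 were negative with a median of -0.09. After quantile normalization, however, the respiratory chain split into 10 positive and 12 negative, with a median of -0.01, whereas 22 of 28 TCA cycle genes and 19 of 25 glycolysis genes were still negative. All 22 respiratory chain genes, 16 of the 28 TCA cycle genes and 16 of the 25 glycolysis genes were among the 5127 brightest genes. Of those 5127, 75% were negative (median -0.07), against 32.3% of the 5127 dimmest (median 0.16), and after quantile normalization these shares were 48.7% and 51.5%.

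Fatty acid oxidation, which can replace glucose as a fuel, held 27 measured genes, of which 0 were called. An unadjusted p under 0.05 was found for 2, both lower in KO, beside 2.01% of all genes. These were Cpt1a, which brings fatty acids into mitochondria (-0.26 ± 0.11), and the carnitine carrier Slc25a20 (-0.23 ± 0.10). The brightest 5127 genes held 15 of the 27. In the list 20 were negative (median -0.09), and 15 after quantile normalization (median -0.01). The fatty acid synthesis and LXR list had 0 of 20 called and 3 with an unadjusted p under 0.05, all higher in KO, beside 1.14% of all genes. Scd2, a desaturase, was 2.29, 1.98, 1.37 and 0.89 in WT against 3.21, 2.83, 2.09 and 2.72 in KO, with KO replicate 3 within the WT range, a difference of 1.08 ± 0.41 and KO higher in all 4 replicate numbers. Scd1 (1.39) and Fads2 (0.95) were the others, and Scd1 was well above background on 1 of 4 WT arrays. Fasn differed by 0.14. In the cholesterol list 0 of 22 were called and 0 had an unadjusted p under 0.05. Glutamine use was likewise without a call (0 of 10, and 0 at an unadjusted p under 0.05), with the glutamine carrier Slc1a5 at -0.14.

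**Figure D5:**
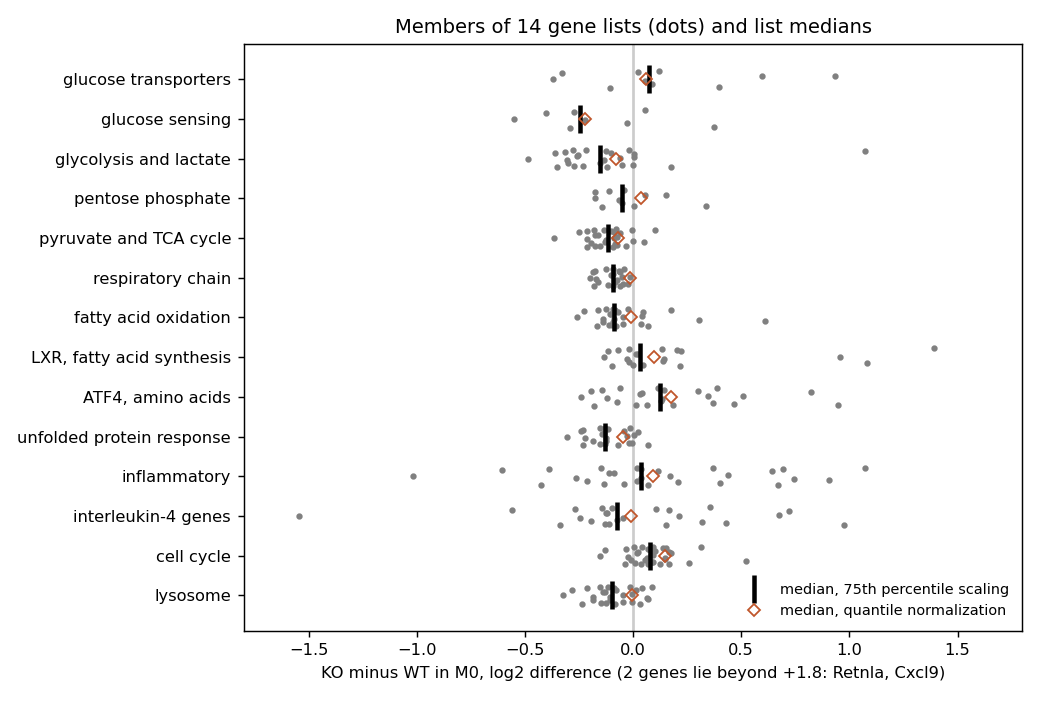
Difference between KO and WT in M0 (horizontal axis, log2) of the members of 14 gene lists; dots are genes, black bars are list medians under the 75th percentile scaling and orange diamonds are medians after quantile normalization. Every list median lies between -0.25 and 0.18, and that of the respiratory chain moves from -0.09 to -0.01 with the scaling.

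Stress responses were close between the genotypes. Of 24 measured ATF4 and amino acid genes, 0 were called and 1 had an unadjusted p under 0.05 (Vldlr, 0.95), with a median of 0.12 that was -0.04 without WT replicate 2. Ddit3 (CHOP) was 0.68, 1.99, 1.81 and 1.59 in WT against 0.77, 1.57, 1.79 and 1.67 in KO, and Asns differed by 0.12. Of 24 genes of the unfolded protein response, 0 were called and 0 had an unadjusted p under 0.05. Herpud1 differed by 0.07 and Dnajb9 by -0.01 (95% interval -0.29 to 0.28). HIF targets had 0 of 19 called and 0 at an unadjusted p under 0.05, although Bnip3 was 3.47, 3.22, 3.40 and 3.43 in WT against 3.06, 3.22, 3.11 and 3.06 in KO, a difference of -0.27 ± 0.20. The NRF2 and glutathione list had 0 of 21 called and 0 at an unadjusted p under 0.05.

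Inflammatory genes varied more between replicates. Of 29 measured, 0 were called and 2 had an unadjusted p under 0.05, both higher in KO, beside 1.14% of all genes. Cxcl9, a chemokine that interferon-gamma induces, was -7.54, -1.76, -8.39 and -6.88 in WT, where 1 of 4 arrays was well above background, and -3.82, 0.45, -4.34 and -4.92 in KO, where 4 of 4 were. KO exceeded WT in all 4 replicate numbers but the groups overlapped because of WT replicate 2 (2.99 ± 1.27, unadjusted p = 0.0294). With the replicate block over 24 arrays, Cxcl9 was called (adjusted p = 0.0252), as the 1 list member that this block added, although its WT level lies mostly at background. Il12b, a subunit of interleukin-12, differed by 1.07 ± 0.44. Tnf differed by 0.04 (95% interval -1.06 to 1.13) and Ccl2 by -0.61. Interferon-stimulated genes (0 of 28 called), antigen presentation genes (0 of 16) and cell cycle genes (0 of 34) had 0 members with an unadjusted p under 0.05. Their medians were -0.13, 0.04 and 0.08, and for the interferon-stimulated list the medians of the 4 replicate pairs ran from -0.58 to 0.60. The cell cycle median turned to -0.29 without WT replicate 2 (33 of 34 negative) and was 0.41 without KO replicate 2, and the interferon-stimulated median ran from -0.52 without KO replicate 2 to 0.31 without WT replicate 2.

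Scavenger and uptake genes had 0 of 26 called and 0 at an unadjusted p under 0.05, and Marco, a scavenger receptor, was 2.77, 3.68, 0.14 and 0.34 in WT against 2.17, 4.27, -1.16 and -1.10 in KO. The lysosome list had 0 of 28 called and 1 with an unadjusted p under 0.05, beside 3.15% of all genes. Genes of macrophage growth had 0 of 13 called and 1 at an unadjusted p under 0.05. This was Csf1r, the receptor for M-CSF, at 7.21, 7.39, 7.38 and 7.23 in WT against 6.71, 7.22, 7.14 and 7.14 in KO (-0.25 ± 0.12).

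The labelled cell type was checked by its markers. All 18 macrophage markers were well above background on all 8 arrays, and apart from Lyz2 none was called. Of the 18, 15 were negative (median -0.10) and 3, Lyz2 among them, had an unadjusted limma p under 0.05, all lower, beside 2.01% of all genes. The brightest 5127 genes held 17 of them, and after quantile normalization 10 were negative (median -0.02). The summed linear level of the macrophage markers, in units of the array's 75th percentile, ran from 1580 to 1670 in WT and from 1250 to 1520 in KO. Without Lyz2 it ran from 1390 to 1460 and from 1220 to 1500. The neutrophil sum (15 markers, 13 above background on all 8 arrays) ran from 113 to 287 in WT and from 79.5 to 340 in KO, and was highest in replicate 2 of each genotype. Of the 15 neutrophil markers, 14 were negative and 0 had an unadjusted limma p under 0.05. Their median was -0.36, and 0.10 without KO replicate 1. The B cell sum was between 1.43 and 4.57 in WT and between 1.83 and 5.55 in KO, and the T and NK cell sum between 3.22 and 4.92 and between 2.92 and 5.18. The erythroid and megakaryocyte sum ran from 152 to 176 in WT and from 144 to 189 in KO. For osteoclast markers the sum ran from 29.8 to 99.6 and from 30 to 98.7. That of mast cells, basophils and eosinophils ran from 2.25 to 7.55 and from 1.97 to 11.7. The dendritic, stromal and progenitor sums also overlapped between the genotypes. In bulk RNA, fewer cells of a type and less RNA per cell cannot be told apart.

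How far the M0 difference is shared by the activated states was tested within the same fit. After LPS and IFNg, 11323 genes were called between the genotypes (44.2%), and for 7699 genes (30%) the genotype difference in M1 differed from that in M0. Of the 14 genes called in M0, 8 (57.1%) were also called in M1, beside the 44.2% of all genes, and 6 in M2, each with the same sign. These 8 are 0.0707% of the genes called in M1, and the 6 are 54.5% of the 11 called in M2 (0.0429% of all genes). For 12 of the 14 the difference in M1 differed from that in M0, a comparison that uses the M0 arrays on which the 14 were chosen. Hhipl1 went from -3.47 in M0 to -1.72 in M1, and Platr9 from -3.06 to -0.88, while their mean WT levels were -1.42 and -2.23 in M0 against -3.04 and -3.68 in M1 and their KO levels -4.89 and -5.30 against -4.76 and -4.56. In KO M1, Hhipl1 was well above background on 1 of 4 arrays and Platr9 on 2, so the size of their M1 difference is limited by background. Lyz2 (-2.66 and -3.37) and Atf7 (-6.58 and -5.46) did not differ between M0 and M1 by this test.

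Genes with the largest change of the genotype difference between M0 and M1 were not called in M0. Rasd2, a small G protein, was between -4.29 and -3.66 in WT M0 and between -3.86 and -3.60 in KO M0, a difference of 0.11, against 6.78 in M1. Lpar3, Rtn4r, Efcc1 and Drd1 were near background in M0 (well above it on at most 2 of 4 arrays of a genotype) and differed by 5.38 to 8.56 in M1. On the negative side, Dnaaf4 differed by -0.13 in M0 and -3.74 in M1 and Arg1 by -1.55 and -5.04, and Pla2g3, Tlr12 and Gbp2b differed by -2.78 to -3.32 in M1. The unfolded protein response list, with 0 of 24 called in M0 beside 0.0546% of all genes, had 22 called higher in M1. Of all 25632 genes, 5835 were called higher in M1. For 22 of the 24 the difference in M1 differed from that in M0, beside 30% of all genes (Herpud1, 0.07 in M0 and 3.14 in M1). Hk2 went from 0.01 to 1.93 and Txnip from -0.40 to -3.58.

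Of all genes tested, 48.1% had a positive M0 difference, with a median of -0.01. The 5835 genes called higher in KO M1 had a median M0 difference of -0.01, with 48.3% positive, close to all genes. The 5488 called lower in KO M1 leaned the same way in M0, with a median of -0.05 and 34% positive, and this lean was not tested. Under this scaling the sign of the M0 difference also followed brightness. Of the 5127 brightest genes 75% were negative (median -0.07), against 32.3% of the 5127 dimmest. The brightness of the 5488 genes was not compared with that of all genes. After IL-4, the genotype difference differed from that in M0 for 0 genes by limma, with 254 (0.991%) at an unadjusted p under 0.05.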

How the data were processed

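RNA of the 8 M0 cultures, and of the 16 M1 and M2 cultures that share the fit, was labelled with Cy3 and hybridised to Agilent mouse arrays, per the labels' protocols. Feature Extraction 10.7.3.1 measured the spots, whose probes carry mm9 coordinates, per the file headers (the submitters' processing notes name 9.1). The deposited processed signal is a background-subtracted linear intensity, not normalized between arrays, per the file headers.

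Outlier spots were left out, spots of a probe averaged, and log2 intensities taken relative to each array's 75th percentile. Probes well above background on at least 4 of 24 arrays were kept (38857 of 56605), named through a RefSeq table (GRCm38.p6, names only; 43847 probes matched) or else as in the files, and the brightest stood for a gene (25632 genes). limma 3.58.1 (R 4.3.3) fitted 6 group means over 24 arrays (18 residual degrees of freedom) with Benjamini-Hochberg adjustment, and was tested on simulated data. The number of arrays limits precision.

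The labels state no pairing of the samples, and the main fit used no block. Replicate numbers served as a block in alternative fits only. WT and KO deviations of the same replicate number correlated at 0.575, 0.845, 0.251 and 0.168 in replicates 1 to 4. Because replicate 2 stood apart in both genotypes, these correlations do not by themselves show that the samples were paired. Among the M0 arrays, replicates 1 and 2 lay on slide 1, 3 on slide 2 and 4 on slide 3, whereas replicate 2 of the M1 and M2 groups lay on slide 2. Named genes were Slc2a1, Lyz2, Lyz1, Atf7, lead list members, up to 15 largest called non-overlapping rises and falls (with the 5 rises of smallest p), called list members and the 5 largest differences between states in each direction. The comparison, its genes and the lists were chosen with earlier results of these data known. The text leaves out a few genes that enter the counts and lists, and these are not reported here. A deposited value table was not used, because its identifiers do not match the probes.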

Additional observations from a re-analysis of the deposited data

Results flagged for a closer look

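Of 210 groups of 4 arrays, 25 held an array far from the other 3, where chance gives about 1 in 20, and each is given as its log2 level. Groups with a missing value are counted in the 210 but were not examined. Replicate 2 was the array far from the others in most cases. In KO M0 these were Lyz2 (6.33, others 4.46 to 4.72), Lyz1 (4.58), Gbp2b (-4.92), Dnaaf4 (-2.23), Pygl (5.60), Ndufs1 (4.02), Asns (0.84), Tnf (-0.68), Cdkn1a (3.49) and Ddx3y (-8.44). In WT M0 they were Txnip (7.33), Glul (5.42), Asns (0.54), Phgdh (-1.01), Ccl2 (-1.44, others 4.56 to 5.71), Atp6v0d2 (4.92), Mki67 (4.29) and Ddx3y (-7.91). Replicate 1 stood apart for Slc16a3 (4.34), Fasn (4.10) and Mrc1 (5.59) in WT and for Csf1r (6.71) in KO. KO replicate 4 stood apart for AK042874 (-5.17), the chromosome 12 locus (-4.73) and Drd1 (-5.27).

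For 7699 genes the genotype difference in M1 differed from that in M0 by limma (adjusted p under 0.05). Among genes called in M0 the change from M0 to M1 was 2.18 for Platr9, 1.75 for Hhipl1, 1.59 for AI835735, 1.53 for Scn4b, 1.51 for Olfr706, 1.44 for Olfr1466, 1.43 for the chromosome 12 locus, 1.13 for Fbll1, 1.12 for ENSMUST00000119478, 1.11 for AK042874 and -0.41 for B230217O12Rik. In KO M1, Platr9 was well above background on 2 of 4 arrays, Hhipl1 and the chromosome 12 locus on 1, and AI835735, Scn4b and AK042874 on 0. The rest were so on all 4. For the genes near background in KO M1, the size of the change is limited by background.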

How the results depend on the processing

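The count of 14 genes called in M0 became 22 after quantile normalization (14 shared), 9 in a fit to the M0 arrays alone (8 shared) and 4 in that fit with the replicate block (4 shared). It was 21 with the slide and 18 with the replicate number as a block over 24 arrays (11 shared), and 11 to 16 when arrays or pairs were left out. Lyz2 differed by -2.66 under the M0 arrays alone, with and without the replicate block, without passing, and by -3.11 to -2.43 when arrays were left out, where it failed once. Slc2a1 ranged from -0.58 to -0.01 when arrays were left out and passed under none of the alternatives run. Among the 14 called genes, Atf7 and Hhipl1 kept their call under all 22 alternatives, and none reversed. The replicate block over 24 arrays ended the calls of AI835735, ENSMUST00000119478 and Olfr1466, and of no other of the 14, and it added Cxcl9 among list members. The M1 against M0 count was 6637 to 10934 over its alternatives, and the M2 against M0 count was 0 under each. The test of each probe, and Lyz2 by its coding probe, were added after seeing the data. Dim probes limit what can be seen: values near background carry no fold.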
